A study of Mus musculus with 12 samples.

Results

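The comparison described here is romidepsin against DMSO in KP1 cells that carried an empty vector (EV). It was chosen by its labels and used 6 of the 12 libraries of the series: EV cells with DMSO, the solvent (3 libraries), and EV cells with romidepsin at 5 nM for 16 h (3 libraries). KP1 is a mouse cell line, lung adenocarcinoma (LUAD) by its label. The other 6 libraries came from KP1 cells overexpressing NRF2, the transcription factor of antioxidant genes, with DMSO or the same romidepsin treatment, and they enter below as a second line given the drug and as libraries outside the comparison. The series design calls the libraries of a group biological replicates, and nothing states that they came from separate transductions, so that the p-values may reflect only how cultures of 1 EV line and 1 NRF2 line vary. The labels give the vector of both lines no further description. Poly-A RNA was sequenced, and the question put by the series title is what an inhibitor of histone deacetylases does to transcription and metabolism in these cells.

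Histone deacetylases (HDACs) take acetyl groups off the lysines of histone tails, which tightens the packing of DNA, and off other proteins. The class I enzymes HDAC1, HDAC2 and HDAC3 work inside corepressor complexes (Sin3, NuRD, CoREST and NCoR) that repressors bring to promoters and enhancers. Romidepsin is a cyclic peptide drug that inhibits class I HDACs and is known for raising histone acetylation, inducing the cell cycle inhibitor p21 and changing the expression of a large share of the genes of a cell.

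Of 35013 genes listed, 13860 had no count in any EV library. The filter of edgeR, a package for testing counts, left 13502 to be tested, and 21511 were not tested. Romidepsin changed 10332 of the 13502 (76.5%) at an adjusted p under 0.05 in the quasi-likelihood test of edgeR, 5281 of them higher (39.1%) and 5051 lower (37.4%). These shares are the background for the counts of gene groups below, save where the expressed genes, defined below, are named. They do not hold expression level fixed. Among the most abundant genes, the highest level tier below, 23.3% were higher and 60.1% lower. The part of level in the count of each group was not tested. Changes of at least 2-fold were 2404 rises (17.8%) and 1191 falls (8.82%), and the imbalance grew with size, to 1242 rises and 139 falls of at least 4-fold and 467 rises and 4 falls of at least 16-fold. The median log2 fold change over all tested genes was 0.01, and the median size of a change in either direction was 0.55. In 81.0% of the tested genes the 3 libraries of one group lay entirely above or below those of the other.

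The libraries held 17486205 to 27085081 estimated counts in EV cells and 16842824 to 28003010 in all 12. Levels are given in CPM, library-scaled counts (TMM factors), and errors are SD over 3 libraries unless named. More genes had at least 1 count with romidepsin, 17930.0 ± 85.8 a library against 16675 ± 363 with DMSO. Mitochondrially encoded genes took 4.84 to 5.29% of counts with DMSO and 5.82 to 6.35% with romidepsin. Replicate 3 of NRF2 cells with DMSO stood apart from its replicates (chi-square per degree of freedom 34.1 and 42.7, against 2.34 to 8.995 for the other pairs). This library enters the EV comparison through the shared filter, the scaling and the estimate of the spread. It is also part of the level in NRF2 cells with DMSO by which genes are ranked below. Intervals and floors given below cover counting error only.

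The lung label was set against marker genes. Of 15 lung epithelial markers, 10 stayed below 1 CPM in all 6 EV libraries, and Sftpa1, Lamp3, Pdpn and Scgb1a1, which mark alveolar and club cells, had no count. The summed level of the 15 was 196.6 to 200.8 CPM with DMSO and 199.6 to 208.4 CPM with romidepsin, carried by Abca3, Etv5 and Aqp5. Within it Etv5, a factor of the distal lung, fell from 75.2 ± 0.453 to 51.2 ± 2.01 CPM and the water channel Aqp5 rose from 51.5 ± 2.74 to 76.4 ± 1.05 CPM. The transcription factor Nkx2-1 and the surfactant gene Sftpc, defining markers of alveolar type II cells, were near 0 in all EV libraries. The 6 general epithelial markers summed to 3748 to 3785 CPM with DMSO and 6356 to 6502 CPM with romidepsin. Among them Krt8, Krt18, Krt19 and Krt7, keratins of simple epithelia, rose while Cdh1, the epithelial cadherin, fell from 353 ± 11.5 to 246 ± 10.3 CPM. The 5 mesenchymal markers summed to 5175 to 5287 CPM with DMSO and 7266 to 7417 CPM with romidepsin. That sum was set by vimentin (Vim, 3438 ± 78.3 to 6107 ± 38.7 CPM), while the other 4, Cdh2, Fn1, Zeb1 and Twist1, all fell.

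Markers of cells that a culture should not hold moved as well. The 8 immune markers summed to 2.94 to 4.62 CPM with DMSO and 50.3 to 55.7 CPM with romidepsin, nearly all of it from Cd68, a lysosomal membrane protein common in macrophages, which went from 3.27 ± 0.636 to 49.6 ± 2.36 CPM. The leukocyte gene Ptprc stayed under 1 CPM. The 7 fibroblast markers summed to 1.34 to 1.74 CPM with DMSO and 8.87 to 9.68 CPM with romidepsin, with Dcn, a defining marker, at 0. The 4 red cell markers summed to 0.06 to 0.16 CPM with DMSO and 9.38 to 12.9 CPM with romidepsin. All of that came from the alpha globin copies Hba-a1 and Hba-a2, which share most of their sequence, while the beta globin Hbb-bs and Alas2 were at 0. The 5 endothelial markers gave 6.09 to 10.4 CPM with DMSO and 6.58 to 8.78 CPM with romidepsin. The part of other cell types in the results was not tested, and in bulk RNA a change in the number of cells of a type and in the RNA per cell cannot be told apart.

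The share of genes that rose was highest among genes that were silent or low, and the share that fell was highest among abundant genes. To keep the ranking independent of the compared libraries, the tested genes were divided into 5 equal tiers by their level in NRF2 cells with DMSO. In the lowest tier, up to 1.92 CPM, 59.4% of the genes were higher with romidepsin in EV cells and 6% lower, with a median log2 fold change of 1.30. From the second to the highest tier the share of higher genes was 45, 37.1, 30.7 and 23.3%, and the share of lower genes 28.4, 42.2, 50.3 and 60.1%. In the highest tier, above 89.0 CPM, the median log2 fold change was -0.29. Rises of at least 4-fold made up 38.2% of the lowest tier and 0.111% of the highest.

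At least part of the excess in the lowest tier follows from the filter. A gene silent with DMSO in both lines is tested only if romidepsin libraries of EV or NRF2 cells express it. Such genes therefore lean toward a rise. That holds mainly below about 0.5 CPM, where 74.5% of 1423 genes were higher. From 0.5 to 1 CPM, 39.4% of 726 genes were higher and 10.2% lower. Among the 552 genes of the lowest tier at 1 CPM or more, which pass without help from romidepsin, 46.7% were higher and 10.7% lower. With 45% higher in the second tier, the lowest tier exceeded it in higher calls mainly through genes below 0.5 CPM. Across all 11353 genes with at least 1 CPM in NRF2 cells with DMSO the balance was the other way, with 34.7% higher, 43.6% lower and a median log2 fold change of -0.08. This second set is called the expressed genes below and is the background used for groups with many silent members.

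Each library's counts were also divided over the tiers. The highest tier held 74.5, 74.8 and 74.8% of a library's counts over all listed genes with DMSO and 71.2, 71.4 and 71.2% with romidepsin. The lowest tier held 0.183, 0.169 and 0.165% with DMSO and 0.574, 0.566 and 0.586% with romidepsin. The filter fixes part of the gain of the lowest tier. The shares of the tiers also depend on each other because they sum to nearly the whole. They are therefore given as a description with no test. Genes with no count in any DMSO library and at least 10 counts in each romidepsin library numbered 63, whereas a single gene, the predicted gene Gm13237, was counted in that way with DMSO and absent with romidepsin.

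**Figure D1:**
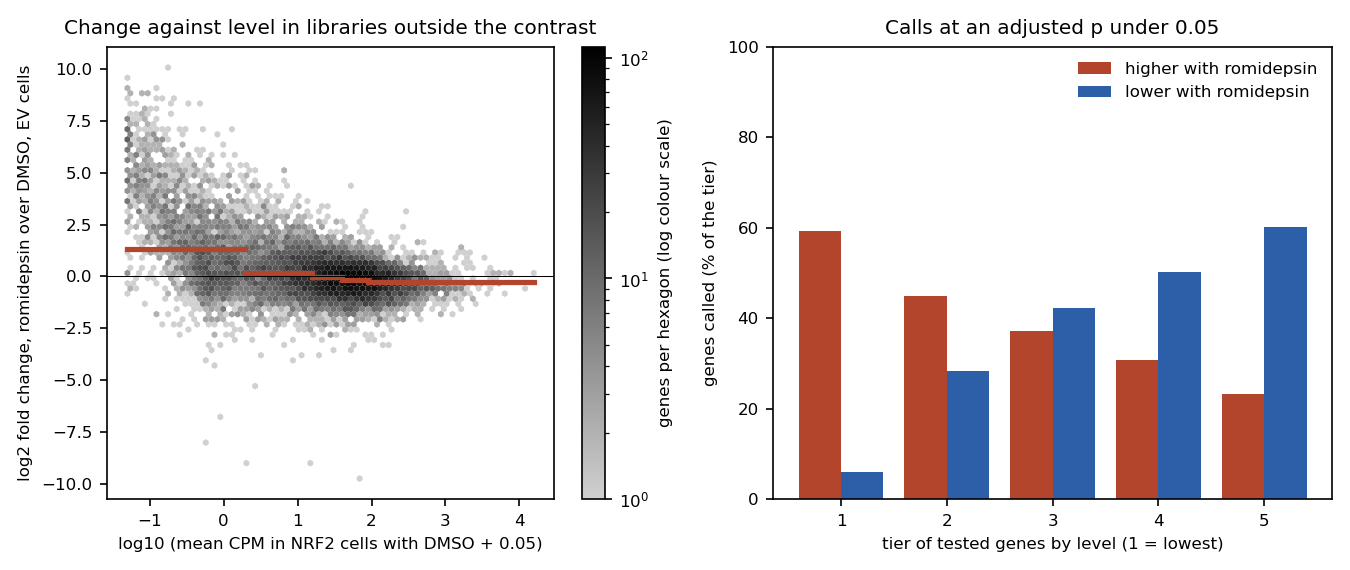
Left, log2 fold change with romidepsin in EV cells against the level in NRF2 cells with DMSO (log10 of CPM plus 0.05), with shading for the number of genes and red bars for the median of each tier. Right, the share of genes called higher (red) and lower (blue) in each tier. Higher calls go from 59.4% in the lowest tier to 23.3% in the highest, and lower calls from 6 to 60.1%.

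The genes with the largest rises among those averaging at least 5 CPM over the 6 libraries included genes of neurons, smooth muscle and stroma that EV cells hardly transcribed. Slc17a7 encodes the vesicular glutamate transporter VGLUT1 of excitatory synapses (ENSMUSG00000070570.5; GRCm38 chromosome 7, 45163949 to 45176142, plus strand). It measured 0.0534, 0 and 0 CPM with DMSO and 10.7, 11.5 and 11.5 CPM with romidepsin, 1 count in the 3 DMSO libraries against 717 in the romidepsin libraries, a ratio of 692 with a 95% counting interval of 124 to 27381. Cnn1, calponin of smooth muscle (ENSMUSG00000001349.5; GRCm38 chromosome 9, 22099216 to 22109630, plus strand), gave 0, 0 and 0.0771 CPM with DMSO and 15.8, 17.6 and 16.3 CPM with romidepsin, 2 counts in the 3 DMSO libraries against 1059 in the romidepsin libraries, a ratio of 511 with a 95% counting interval of 141 to 4227. In both genes 2 of the DMSO libraries had no count at all and the romidepsin libraries lay within a narrow range.

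Vgf, a neuropeptide precursor induced by nerve growth factor (ENSMUSG00000037428.14; GRCm38 chromosome 5, 137026392 to 137033351, plus strand), reached the highest level of this set. It measured 0.374, 0.474 and 0.424 CPM with DMSO and 144, 136 and 146 CPM with romidepsin. That was a 332-fold rise (log2 8.37, edgeR adjusted p = 1.7e-19), whose size is limited by the few DMSO counts. Stac2, an adaptor of voltage-gated calcium channels (ENSMUSG00000017400.10; GRCm38 chromosome 11, 98036623 to 98053462, minus strand), measured 0.0534, 0.118 and 0.0771 CPM with DMSO and 25.9, 25.01 and 25.3 CPM with romidepsin, a 292-fold rise (edgeR adjusted p = 6.1e-16). Ankrd35, an ankyrin repeat gene without a settled function (ENSMUSG00000038354.13; GRCm38 chromosome 3, 96670131 to 96691032, plus strand), measured 0.107, 0.178 and 0.0386 CPM with DMSO and 14.98, 14.4 and 14.1 CPM with romidepsin, a 140.1-fold rise (edgeR adjusted p = 2.0e-14). In each gene all 3 romidepsin libraries stand far above the DMSO libraries, which are below 1 CPM.

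Of the other 7, Gli1, the target gene and effector of Hedgehog signalling, measured 0.107, 0.0592 and 0.116 CPM with DMSO and 12.2, 11.2 and 11.1 CPM with romidepsin. Cd248, the pericyte and tumour stroma glycoprotein endosialin, went from 0.0989 ± 0.0539 to 12.4 ± 0.408 CPM. Coro1a, an actin-binding protein of leukocytes, went from 0.193 ± 0.0743 to 14.1 ± 1.32 CPM. Atp2b4, a calcium pump of the plasma membrane, went from 0.499 ± 0.0854 to 31.5 ± 0.573 CPM, and the phosphodiesterase Pde2a from 0.484 ± 0.328 to 29.7 ± 11.1 CPM. Pde2a had the widest spread among romidepsin libraries (33.7, 17.2 and 38.3 CPM). Mtus1, a microtubule-associated tumour suppressor, went from 0.219 ± 0.0584 to 11.4 ± 1.58 CPM, and the leucine-rich repeat gene Lrrn4cl from 0.696 ± 0.116 to 30.01 ± 3.12 CPM. Rises of these 7 ran from 43.5-fold for Lrrn4cl to 120.2-fold for Cd248, and no romidepsin library overlapped a DMSO library.

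The largest falls were smaller than the rises and were in genes that EV cells transcribed at moderate levels. Atoh8, a basic helix-loop-helix transcription factor (ENSMUSG00000037621.8; GRCm38 chromosome 6, 72206177 to 72235577, minus strand), measured 81.1, 95.3 and 87.2 CPM with DMSO and 6.34, 5.14 and 5.90 CPM with romidepsin, a 15.2-fold fall (log2 -3.92 ± 0.09, SE; edgeR adjusted p = 3.4e-16). Bend3, a DNA-binding repressor of CpG-rich promoters (ENSMUSG00000038214.15; GRCm38 chromosome 10, 43478831 to 43515396, plus strand), measured 50.8, 50.9 and 52.2 CPM with DMSO and 3.73, 4.82 and 3.54 CPM with romidepsin, a 12.7-fold fall (edgeR adjusted p = 1.9e-15). Rcbtb2 (ENSMUSG00000022106.14; GRCm38 chromosome 14, 73123037 to 73207843, plus strand) measured 23.02, 21.3 and 22.6 CPM with DMSO and 1.47, 2.30 and 2.17 CPM with romidepsin, an 11.2-fold fall (edgeR adjusted p = 1.0e-13). The DMSO libraries of each of these 3 genes lie close together, and every romidepsin library is far below them.

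Slc7a11 encodes the cystine importer xCT (ENSMUSG00000027737.10; GRCm38 chromosome 3, 49892526 to 50443614, minus strand) and measured 144, 135 and 136 CPM with DMSO and 13.9, 16.6 and 13.5 CPM with romidepsin, a 9.41-fold fall (edgeR adjusted p = 2.4e-16). Hnf4a, a nuclear receptor of liver and gut epithelium (ENSMUSG00000017950.16; GRCm38 chromosome 2, 163506808 to 163572910, plus strand), measured 44.5, 46.5 and 42.97 CPM with DMSO and 5.80, 5.41 and 5.29 CPM with romidepsin, an 8.11-fold fall (edgeR adjusted p = 1.3e-15). Clcf1, a cytokine of the interleukin-6 family, went from 136 ± 5.03 to 15.4 ± 0.824 CPM. Masp1, a protease of the lectin complement pathway, went from 81.5 ± 2.99 to 10.4 ± 1.20 CPM, and Lgals3bp, a secreted partner of galectin-3, from 53.04 ± 1.45 to 7.26 ± 0.418 CPM. The neuropeptide gene Qrfp went from 46.6 ± 2.55 to 4.71 ± 1.42 CPM, the lysophosphatidic acid receptor Lpar6 from 16.4 ± 1.35 to 1.91 ± 0.375 CPM, and the ubiquitin ligase Trim65 fell 7.55-fold. Erdr1 went from 37.7 ± 11.2 to 4.98 ± 2.52 CPM, a value that is uncertain because the gene has near-identical copies on the sex chromosomes.

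**Figure D2:**
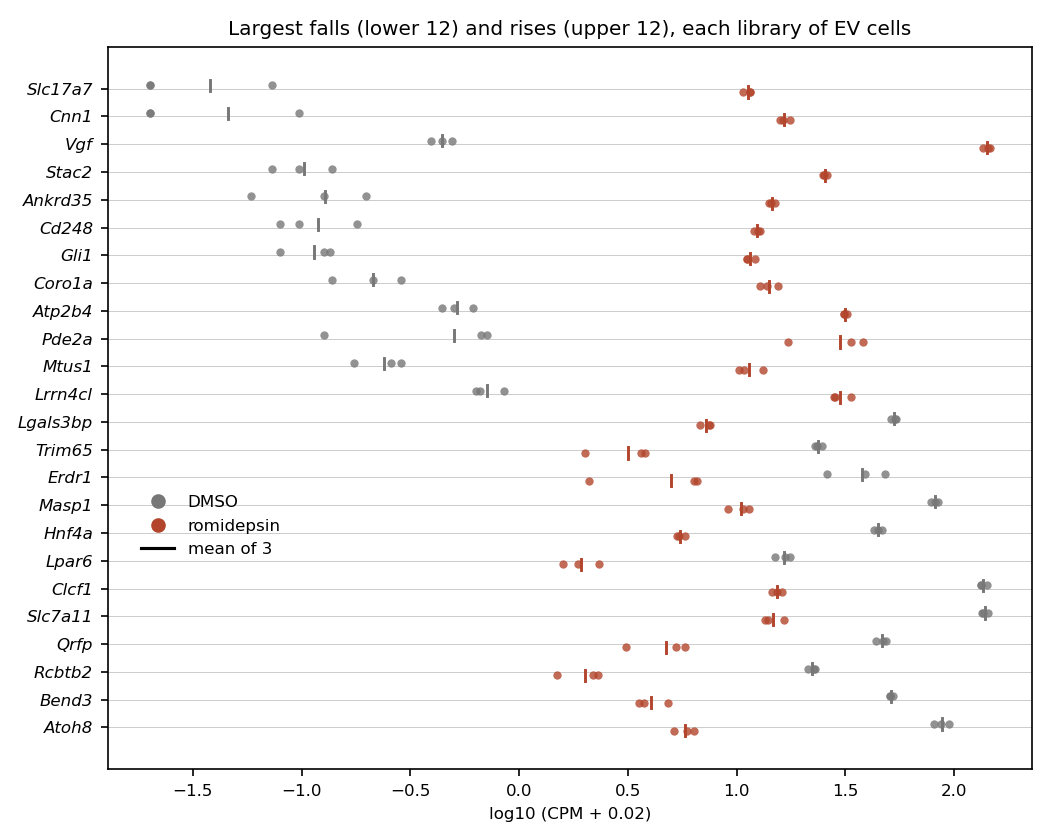
Each library's level of the 12 genes with the largest rises (upper) and the 12 with the largest falls (lower), as log10 of CPM plus 0.02, with grey points for DMSO, red points for romidepsin and bars for the mean of 3. In every gene shown the 3 romidepsin libraries lie apart from the 3 DMSO libraries, and the rises start from below 1 CPM.

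Promoters are shown for the 3 largest rises and falls that have an entry in the RefSeq promoter table (build GRCm38.p6), and for Cdkn1a, the p21 gene and classic target of HDAC inhibitors. Each runs from 250 bases before to 50 bases after the annotated start, 5′ to 3′ on the gene's strand. Capitals mark matches on either strand to the GC box GGGCGG (reverse CCGCCC), bound by Sp1 factors, to the CCAAT box CCAAT (reverse ATTGG), the E box CACGTG, the TATA box TATAAA and the cyclic AMP element TGACGTCA. Adjoining or overlapping matches run together. Vgf and Stac2 are named only.
Slc17a7 chr7:45163671-45163970 plus: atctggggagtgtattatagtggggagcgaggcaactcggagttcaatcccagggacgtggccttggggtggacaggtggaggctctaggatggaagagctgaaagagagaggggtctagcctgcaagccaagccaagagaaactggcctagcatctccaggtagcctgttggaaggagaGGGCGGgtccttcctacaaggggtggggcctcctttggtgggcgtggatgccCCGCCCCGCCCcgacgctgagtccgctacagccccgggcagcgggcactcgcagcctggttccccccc
Cnn1 chr9:22099003-22099302 plus: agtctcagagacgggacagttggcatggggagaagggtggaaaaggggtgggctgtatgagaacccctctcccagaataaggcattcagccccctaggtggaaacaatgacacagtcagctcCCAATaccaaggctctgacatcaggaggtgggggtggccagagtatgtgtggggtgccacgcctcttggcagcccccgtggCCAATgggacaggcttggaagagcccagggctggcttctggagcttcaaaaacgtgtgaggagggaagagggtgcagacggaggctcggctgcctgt
Ankrd35 chr3:96669881-96670180 plus: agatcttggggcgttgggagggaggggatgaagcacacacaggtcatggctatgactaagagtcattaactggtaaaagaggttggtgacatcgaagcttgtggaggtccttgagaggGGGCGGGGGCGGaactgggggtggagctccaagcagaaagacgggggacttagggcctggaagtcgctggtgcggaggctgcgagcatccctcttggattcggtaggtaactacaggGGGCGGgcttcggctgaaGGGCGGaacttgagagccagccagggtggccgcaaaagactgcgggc
Cdkn1a chr17:29093519-29093818 plus: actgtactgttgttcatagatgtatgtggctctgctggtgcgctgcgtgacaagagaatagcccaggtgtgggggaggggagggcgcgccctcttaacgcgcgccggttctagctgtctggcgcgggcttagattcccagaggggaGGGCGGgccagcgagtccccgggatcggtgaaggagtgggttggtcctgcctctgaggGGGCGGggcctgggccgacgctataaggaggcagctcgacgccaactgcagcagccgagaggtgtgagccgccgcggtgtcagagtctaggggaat
Atoh8 chr6:72235528-72235827 minus: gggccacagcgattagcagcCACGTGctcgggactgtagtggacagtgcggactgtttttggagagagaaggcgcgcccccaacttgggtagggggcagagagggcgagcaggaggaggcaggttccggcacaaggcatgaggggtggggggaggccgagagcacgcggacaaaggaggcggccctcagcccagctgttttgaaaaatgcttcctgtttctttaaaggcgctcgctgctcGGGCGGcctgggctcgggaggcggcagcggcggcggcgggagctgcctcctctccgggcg
Bend3 chr10:43478890-43479189 plus: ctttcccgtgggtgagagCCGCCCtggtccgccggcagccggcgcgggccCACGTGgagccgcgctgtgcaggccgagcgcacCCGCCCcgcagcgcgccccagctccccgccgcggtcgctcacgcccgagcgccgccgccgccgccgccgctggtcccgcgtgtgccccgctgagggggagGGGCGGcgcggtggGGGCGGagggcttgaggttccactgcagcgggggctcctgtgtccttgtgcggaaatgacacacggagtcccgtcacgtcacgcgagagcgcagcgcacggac
Rcbtb2 chr14:73142535-73142834 plus: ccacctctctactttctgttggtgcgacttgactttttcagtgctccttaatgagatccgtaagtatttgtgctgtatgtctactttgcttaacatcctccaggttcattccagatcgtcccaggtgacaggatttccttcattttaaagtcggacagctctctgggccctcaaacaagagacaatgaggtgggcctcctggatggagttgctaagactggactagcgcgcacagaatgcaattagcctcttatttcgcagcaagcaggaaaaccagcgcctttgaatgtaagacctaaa

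The 3 rising genes and the 3 falling genes do not fall into 2 kinds of promoter. The Slc17a7 stretch held 13 CpG dinucleotides and 3 GC boxes, that of Ankrd35 14 and 4, and that of Cnn1 6 CpG, no GC box and 2 CCAAT boxes. The falling Bend3 had 46 CpG, 4 GC boxes and an E box. Atoh8 had 24 CpG with 1 GC box and 1 E box, and Rcbtb2 had 8 CpG and none of the motifs. Cdkn1a (ENSMUSG00000023067.14; GRCm38 chromosome 17, 29090976 to 29100727, plus strand) measured 3.69, 2.90 and 4.74 CPM with DMSO and 42.2, 39.1 and 41.8 CPM with romidepsin, a 10.6-fold rise. The table holds a pair of starts for it, of which the one printed had 23 CpG and 2 GC boxes and the other, at chr17:29090729-29091028, had 2 CpG and no motif. Rcbtb2 and Bend3 also have a pair of starts each in the table, of which 1 is shown.

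For shares over all genes 1 promoter a gene was used, the first start listed. For Cdkn1a that is the start without a motif, not the one printed. The GC box stood in 35.9% of these 27025 promoters and in 64.3% of the 10308 that belong to tested genes. It stood in 58.6% of the promoters of genes at least 4-fold higher and in 55.7% of those at least 4-fold lower, both below the share of all tested genes. Within the lowest tier 46.9% of promoters had it, and of those at least 4-fold higher 56.6%. In the second tier by level the median log2 fold change was -0.04 with 0 to 9 CpG (481 genes, 35.3% higher), 0.15 with 10 to 19 CpG (657 genes, 44.4% higher) and 0.38 with 20 or more (919 genes, 54.2% higher). In the highest tier, in the same order of CpG number, the shares higher were 24, 25.2 and 23.4% and the median log2 fold changes -0.35, -0.30 and -0.27, and falls of at least 2-fold made up 22.1, 11.7 and 10.4%. These are descriptions across genes, which are not independent, and whether a factor binds these letters was not measured.

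Changes in the share of all counts were small for any single transcript. The largest gains in share of a library's counts were Anxa2, a calcium-dependent membrane binder, from 0.132 ± 0.00324% to 0.396 ± 0.00700%, and Vim from 0.333 ± 0.00377% to 0.642 ± 0.00457%. Flnc, the muscle filamin that crosslinks actin, was the steepest of them and went from 0.0247 ± 0.000909% to 0.238 ± 0.00871%. It measured 262, 251 and 251 CPM with DMSO and 2214, 2213 and 2356 CPM with romidepsin, an 8.87-fold rise. The ferritin subunits that store iron gained together, Ftl1 from 0.163 ± 0.00573% to 0.382 ± 0.0134% and Fth1 from 0.142 ± 0.00570% to 0.329 ± 0.0105%. The inducible cytosolic chaperone Hsp90aa1 went from 0.124 ± 0.00195% to 0.312 ± 0.00172%, whereas its constitutive counterpart Hsp90ab1 was among the largest losses and went from 0.624 ± 0.00677% to 0.416 ± 0.00495%. The other large losses were the elongation factor Eef1a1 (1.06 ± 0.0222% to 0.806 ± 0.0117%), the nucleolar chaperone Npm1 (0.274 ± 0.00214% to 0.123 ± 0.00481%), the chromatin architectural gene Hmga1 (0.313 ± 0.0166% to 0.184 ± 0.00307%), the mitochondrial leucyl-tRNA synthetase Lars2 (0.508 ± 0.0613% to 0.392 ± 0.0228%) and the beta tubulin Tubb5 (0.236 ± 0.0101% to 0.133 ± 0.00186%). The fall of Lars2 was noisy: its edgeR adjusted p was 0.0385 and rose to between 0.0578 and 0.107 on leaving out any EV library other than replicate 3 with DMSO. Dropping replicate 3 of romidepsin-treated NRF2 cells gave 0.0508.

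Gene groups were next taken from lists drawn up from general knowledge. The drug's targets came first. Hdac1 rose 1.75-fold, from 119 ± 4.66 to 207 ± 3.66 CPM (edgeR adjusted p = 1.3e-11), and Hdac2 fell from 166 ± 4.47 to 143 ± 2.81 CPM (1.16-fold). Hdac3 went from 129 ± 3.86 to 141 ± 0.418 CPM and Hdac8, a class I enzyme outside the corepressor complexes, from 7.87 ± 0.543 to 6.06 ± 0.240 CPM. The last 2 were near the threshold (edgeR adjusted p = 0.0422 and 0.013). The Hdac3 call was lost on leaving out any EV library other than replicate 3 with DMSO (edgeR adjusted p = 0.0845 to 0.131), on leaving out any of the 3 libraries of NRF2 cells with romidepsin (0.0528 to 0.0558) and with the replicate number as a block (0.0563), and the Hdac8 call without replicate 1 of EV cells with DMSO (0.0525). Under upper-quartile scaling neither Hdac2 (0.0627) nor Hdac8 (0.0736) passed.

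The complexes in which these enzymes work were mostly lower. Of 25 corepressor genes 3 were higher and 17 lower, with a median log2 fold change of -0.29. The members with the largest falls belonged to NuRD, the nucleosome remodelling and deacetylase complex. The remodeller Chd3 measured 316, 292 and 281 CPM with DMSO and 77.8, 76.1 and 68.2 CPM with romidepsin, and the 2 groups of libraries lay far apart. Mta3, Mbd3 and Mta1, NuRD subunits that hold the deacetylase or bind DNA, fell 2.78-fold, 2.56-fold and 2.30-fold. Sap18, a small Sin3-associated protein, went the other way with a 2.01-fold rise.

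SWI/SNF, the remodeller that slides nucleosomes off regulatory DNA, was lower in 17 of 20 genes and higher in 2, with a median of -0.77 on the log2 scale. Arid1a, the defining subunit of the BAF form, measured 152, 142 and 136 CPM with DMSO and 46.8, 44.2 and 42.9 CPM with romidepsin, a 3.21-fold fall, and its paralog Arid1b fell 2.80-fold. Smarcd3, a subunit of heart and muscle, fell 3.20-fold. Dpf1, a subunit of the neuronal complex, rose 3.37-fold from 6.41 ± 0.818 to 21.5 ± 1.56 CPM. The other member that rose was its paralog Dpf3, named after its value was seen. Its log2 fold change of 6.89 was the largest of the list. Of the 19 expressed SWI/SNF genes 1 was higher and 17 lower. The part of the filter in the Dpf3 rise was not tested.

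Of 17 Polycomb genes, which keep developmental genes silent through histone H3 and H2A marks, 6 were higher and 9 lower. Phf19, which recruits the PRC2 complex, fell 5.79-fold and Bmi1 of PRC1 fell 4.08-fold, from 85.02 ± 0.842 to 20.8 ± 1.53 CPM. Pcgf2 of PRC1 fell 1.88-fold. None of 7 DNA methylation genes was higher and 5 were lower, among them the maintenance enzyme Dnmt1 (1.45-fold), its guide Uhrf1 (1.63-fold), the de novo enzyme Dnmt3a (1.59-fold) and the demethylase Tet3 (1.48-fold).

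Genes of endoderm, from which lung and gut arise, were mostly lower. Of 11 endodermal and gastric genes 2 were higher and 8 lower. Besides Hnf4a, the fetal chromatin gene Hmga2 fell 3.73-fold from 813 ± 32.8 to 218 ± 14.3 CPM, and Sox2, a factor of foregut and stem cells, fell 2.60-fold. Sox9, of lung tip progenitors and cartilage, rose 2.74-fold. Foxa1 and Foxa2, the pioneer factors of lung and gut epithelium, fell 2.51-fold and 1.64-fold. Of 9 factors that drive the epithelial to mesenchymal transition 6 fell, with Prrx1 down 3.08-fold and Zeb2 down 3.01-fold. The 2 that rose were Snai1, from 0.940 ± 0.318 to 3.70 ± 0.715 CPM, and Snai3, from 3.31 ± 0.230 to 11.6 ± 1.09 CPM.

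Growth factor receptors were mostly higher. Among the receptor tyrosine kinase genes that were expressed, 12 of 18 were higher and 5 lower, against 34.7% higher and 43.6% lower of all expressed genes. Erbb3, the neuregulin receptor, measured 1.12, 0.651 and 1.12 CPM with DMSO and 35.3, 35.02 and 32.5 CPM with romidepsin, a 34.5-fold rise. Its partner Erbb2 fell 2.06-fold, from 55.3 ± 2.97 to 26.8 ± 1.07 CPM. Ret, the receptor of glial cell line-derived factors, rose from 0.217 ± 0.0899 to 9.01 ± 0.866 CPM (41.5-fold). Ephb3, an ephrin receptor, rose 10.4-fold, and Flt4, the lymphatic receptor of vascular growth factors, rose 7.92-fold from a level near 0. For Ret and Flt4, silent with DMSO, the filter fixes part of the rise.

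The output of the MAPK pathway below these receptors was mixed, with 9 of 21 genes higher and 12 lower. The 4 with the largest changes rose: the phosphatases Dusp1 (21.6, 22.3 and 21.7 CPM with DMSO and 97.9, 103 and 113 CPM with romidepsin), Dusp10 (2.70-fold) and Dusp5 (2.45-fold), which switch off MAP kinases, and the survival gene Ier3 (2.57-fold). Of 18 immediate early genes, first responders to growth signals and stress, 11 were higher and 3 lower, and of the 15 expressed 8 and 3. Fos went from 1.43 ± 0.516 to 8.03 ± 0.0499 CPM and Atf3 from 6.20 ± 0.703 to 32.4 ± 2.34 CPM, and both groups of libraries were fully apart. Nr4a3 and Arc rose from near 0 to 3.24, 2.34 and 2.36 CPM and 2.70, 2.93 and 3.30 CPM, and the filter may fix part of these rises. Ier2 fell 1.88-fold.

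YAP and TAZ are growth-promoting coactivators of the TEAD factors. Their 21 target genes were lower in 13 and higher in 6 cases. The best-known target, the matricellular factor Ccn2, was against this majority and measured 155, 148 and 149 CPM with DMSO and 718, 725 and 784 CPM with romidepsin, a 4.93-fold rise. The coagulation starter F3 rose 3.35-fold and the kinase Nuak2 rose 9.11-fold. Myof, a membrane repair protein, fell 2.74-fold from 1461 ± 78.1 to 534 ± 19.06 CPM.

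In TGF-beta and BMP signalling 19 of 30 genes were lower and 5 higher, with a median of -0.34 on the log2 scale. The ligand Tgfb3 fell 2.68-fold, the receptor Acvr2b 2.69-fold, the inhibitory Smad6 2.93-fold and the target Id3 2.25-fold. The ligand Bmp4 rose 1.92-fold, from 3.58 ± 0.1004 to 6.87 ± 0.393 CPM. Notch genes gave 7 higher and 5 lower of 14 expressed, and the largest rises were in silent members. The receptor Notch3 measured 0, 0 and 0.0386 CPM with DMSO and 4.37, 3.29 and 3.73 CPM with romidepsin, 1 count in the 3 DMSO libraries against 241 in the romidepsin libraries, a ratio of 233 with a 95% counting interval of 41.4 to 9228. The receptor Notch1 rose 4.99-fold, the ligand Dll4 5.24-fold and the target Hey2 7.06-fold, while the coactivator Maml2 fell 2.73-fold.

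Of 35 Wnt pathway genes tested, 18 were higher and 10 lower, silent members that pass the filter through romidepsin libraries included. Among the 23 expressed, 7 were higher and 10 lower. The ligand Wnt11 went from 0.0721 ± 0.0934 to 2.38 ± 0.409 CPM and Wnt9a from 0.245 ± 0.204 to 2.85 ± 0.495 CPM. Axin2 and Rnf43, negative feedback genes that the pathway itself induces, rose 4.86-fold and 5.14-fold, to 2.70, 2.39 and 1.84 CPM and 1.96, 1.76 and 2.41 CPM. The secreted inhibitor Dkk2 fell 2.01-fold.

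Over 19 genes of antigen presentation on MHC class I 12 were higher and 5 lower, and over the 14 expressed 7 and 5. The heavy chains H2-K1 and H2-D1 measured 9.24, 9.36 and 9.91 CPM with DMSO and 128, 127 and 132 CPM with romidepsin, and 27.6, 25.6 and 27.2 CPM with DMSO and 159, 151 and 159 CPM with romidepsin, rises of 13.5-fold and 5.83-fold. Class I genes share sequence, so counts of single copies are uncertain. Nlrc5, the coactivator of class I promoters, went from 0.415 ± 0.258 to 5.34 ± 0.926 CPM and the peptide transporter subunit Tap2 from 0.827 ± 0.110 to 4.48 ± 0.182 CPM. Erap1, which trims peptides to fit class I molecules, fell 5.09-fold from 17.9 ± 1.85 to 3.51 ± 0.265 CPM. Psmb10, a subunit of the immunoproteasome, fell 2.61-fold from 30.6 ± 1.39 to 11.7 ± 0.0752 CPM.

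Interferon-stimulated genes were higher in 7 and lower in 3 of 14 expressed, with 16 and 3 of 26 over all tested. Irf7, the master factor of the type I response, went from 0.107 ± 0.0475 to 8.67 ± 0.184 CPM. The antiviral genes Oasl1, Gbp2 and Xaf1 stayed under 5 CPM despite rises of 4.84-fold, 3.87-fold and 3.82-fold, and Samd9l fell 2.13-fold. Cytokines were higher in 5 and lower in 2 of 11 expressed. The membrane-bound chemokine Cx3cl1 reached the highest level of those named, from 4.23 ± 0.231 to 23.1 ± 1.79 CPM. Cxcl10, a T cell attractant, went from 0.156 ± 0.0707 to 4.25 ± 0.446 CPM, Csf2 from 0.683 ± 0.288 to 4.31 ± 0.378 CPM and Il33 from 0.629 ± 0.128 to 3.29 ± 0.633 CPM. Lif, a cytokine of the interleukin-6 family like Clcf1, fell 4.16-fold from 59.2 ± 2.187 to 14.3 ± 0.192 CPM.

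The genes that set the threshold of cell death moved in both directions. Among 4 antiapoptotic BCL2 genes Bcl2l1 (BCL-XL) fell 1.49-fold, Bcl2l2 1.401-fold and Bcl2 1.18-fold, and Mcl1 rose 1.20-fold. The Bcl2 call was lost without replicate 1 of EV cells with DMSO (edgeR adjusted p = 0.0826) or replicate 3 with romidepsin (0.0583). Of 9 proapoptotic genes 3 were higher and 3 lower. Bcl2l11, which encodes the BH3-only killer BIM, measured 33.3, 30.3 and 29.8 CPM with DMSO and 79.6, 79.4 and 81.6 CPM with romidepsin, a 2.58-fold rise, and Pmaip1 (NOXA) rose 1.67-fold. The effectors Bok and Bak1 fell 3.69-fold and 1.68-fold, Bok from 49.01 ± 3.01 to 13.3 ± 0.710 CPM. Caspases, death receptors and their inhibitors were higher in 7 and lower in 10 of 17. Cflar, which blocks caspase-8, fell 1.87-fold. Diablo, which frees caspases from their inhibitors, rose 1.95-fold, and Casp12 and the inhibitor Birc3 fell to below 1 CPM.

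Of 24 targets of the tumour suppressor p53 14 were higher and 5 lower. Beside Cdkn1a the kinase Plk2 rose 2.34-fold from 51.3 ± 2.30 to 119.7 ± 4.46 CPM, Btg2 2.33-fold and Trp53inp1 3.93-fold, and the mitotic gene Ckap2 fell 2.13-fold. Ferroptosis is a death by peroxidation of membrane lipids that depends on iron and is held back by cystine import and glutathione. Of 17 genes 13 were higher and 3 lower, and of the 14 expressed 10 and 3. Gch1, which makes the protective tetrahydrobiopterin, measured 0.267, 0.474 and 0.540 CPM with DMSO and 12.3, 13.4 and 13.03 CPM with romidepsin, a 29.1-fold rise. Sat1, of polyamine breakdown, rose 3.60-fold and Lpcat3, which loads membranes with polyunsaturated lipids, rose 2.29-fold. The iron exporter Slc40a1 rose from 0.173 ± 0.105 to 2.84 ± 0.189 CPM. Against these, Slc3a2, the partner chain of the xCT importer, fell 1.57-fold along with Slc7a11, so that both chains of the importer were lower. For Gch1 and Slc40a1, below 1 CPM with DMSO, the filter may fix part of the rise.

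Genes that break down cell contents were more often higher than lower. Lysosomal genes were higher in 28 and lower in 10 of 47, with a median of 0.45 on the log2 scale. Manba, a glycosidase, measured 15.8, 14.8 and 13.9 CPM with DMSO and 63.2, 60.7 and 59.3 CPM with romidepsin, a 4.13-fold rise, and Atp6v0d1 of the proton pump rose 3.14-fold. The protease Ctsf rose 4.59-fold from a low level, and the glycosidase Gusb fell 3.71-fold from 73.97 ± 0.924 to 19.9 ± 1.37 CPM. Autophagy genes were higher in 21 and lower in 5 of 35, with the membrane tags Map1lc3b and Map1lc3a up 2.40-fold and 2.30-fold, Atg101 of the starting kinase complex up 2.25-fold, and the kinase Ulk2 down 2.26-fold. Of 36 proteasome genes 20 were higher and 6 lower. Psmd13, Psmb3 and Psmd3 rose 1.66-fold, 1.62-fold and 1.62-fold.

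Of 30 heat shock and chaperonin genes 10 were higher and 16 lower. The small heat shock protein Hspb1 measured 12.1, 12.1 and 12.5 CPM with DMSO and 134, 132 and 146 CPM with romidepsin, an 11.2-fold rise. The inducible HSP70 genes Hspa1b and Hspa1a rose 7.32-fold and 15.3-fold, though these copies are nearly identical and their split is uncertain, and the testis form Hspa2 rose 6.39-fold. The unfolded protein response of the endoplasmic reticulum had 15 of 26 genes higher and 8 lower. The calcium-binding chaperone Calr went from 793 ± 20.4 to 1808 ± 11.7 CPM, Sdf2l1 rose 2.57-fold, and the stress kinase Eif2ak3 (PERK) rose 2.05-fold. Herpud1, of the degradation arm, fell 2.43-fold. Under upper-quartile or library-size scaling the lower members of this list numbered 4 and those of the proteasome list 3.

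Genes of mitochondrial function followed, in 4 lists. The nuclear-encoded respiratory chain had 33 of 76 genes higher and 15 lower, with a median of 0.16 on the log2 scale. The complex I subunits Ndufv3 and Ndufb10 rose 2.66-fold and 2.17-fold to 98.9, 102 and 104 CPM and 214, 216 and 213 CPM, and Ndufs3 fell 1.54-fold. Of the 13 genes encoded in the mitochondrion itself 3 passed the test, all higher: mt-Nd2, mt-Nd4 and mt-Nd1, by 1.26-fold, 1.21-fold and 1.13-fold. The call for mt-Nd1 was lost on leaving out any EV library other than replicate 3 with DMSO (edgeR adjusted p = 0.0722 to 0.152) or when either of replicates 2 and 3 of romidepsin-treated NRF2 cells was dropped (0.0539 and 0.0548). Higher calls numbered 7 with the EV libraries fitted alone and 5 when the NRF2 library with DMSO that stood apart (replicate 3) was dropped. A lower call, 1 in each case, was made under each of these settings, by DESeq2, by limma-voom and on dropping replicate 2 of that group. Of 17 mitochondrial tRNA synthetases 13 fell and 1 rose, with Yars2 down 2.27-fold and Ears2 down 1.77-fold. Mitochondrial ribosomal protein genes were 20 higher and 31 lower of 77, a balance that turned to 33 higher and 27 lower under upper-quartile scaling and to 33 and 26 under library-size scaling. The extremes were Mrpl23 (2.78-fold lower), Mrpl54 (2.10-fold lower) and Mrps12 (1.81-fold higher).

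Of 20 cytosolic tRNA synthetases, which charge tRNAs with amino acids, 15 were lower and 2 higher, with a median of -0.65 on the log2 scale. Vars, of valine, measured 437, 464 and 451 CPM with DMSO and 190.1, 182 and 182 CPM with romidepsin, a 2.44-fold fall, and Iars, Gars and Tars fell 2.23-fold, 2.16-fold and 2.01-fold. The 2 higher calls became 4 without replicate 3 of EV cells with DMSO and 5 under upper-quartile or library-size scaling. Of 57 initiation factor genes 28 were lower and 11 higher, with a median of -0.12 on the log2 scale. Eif4g2, which starts translation without a cap, went from 1090.2 ± 10.2 to 466 ± 8.56 CPM, and the helicase pair Eif4b and Eif4a1 fell 2.18-fold and 1.74-fold. Under those 2 scalings 18 and 19 initiation factors were higher.

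Genes that process RNA were mostly lower. Of 65 splicing factor genes 48 were lower and 6 higher, with a median of -0.46 on the log2 scale. The RNA-binding proteins Hnrnpu and Hnrnpab measured 543, 533 and 541 CPM with DMSO and 262, 255 and 241 CPM with romidepsin, and 865, 871 and 896 CPM with DMSO and 413, 409 and 388 CPM with romidepsin, falls of 2.13-fold and 2.18-fold. The SR protein Srsf7 fell 2.20-fold and Hnrnph3 2.08-fold, and the small SF3b subunit Sf3b5 rose 1.66-fold. Without replicate 3 of NRF2 cells with DMSO 10 splicing genes were higher, and with the EV libraries alone 11.

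Nuclear pore and export genes were lower in 26 and higher in 5 of 33. The pore proteins Nup188 and Nup37 fell 2.14-fold and 2.18-fold, and the exportins Xpo4 and Xpo5, the latter the carrier of microRNA precursors, fell 2.20-fold and 2.04-fold. Nup210l, a germline relative of a pore protein, rose 1.68-fold. Fanconi anaemia and homologous recombination genes, which repair crosslinks and double-strand breaks, were lower in 24 and higher in 2 of 32, with a median of -0.65. The break sensor Nbn measured 23.1, 22.7 and 24.1 CPM with DMSO and 6.88, 7.75 and 5.57 CPM with romidepsin, a 3.46-fold fall. Fancd2, the central protein of crosslink repair, fell 2.82-fold, Fancc 2.38-fold and the BRCA1 partner Bard1 2.18-fold. Rad51c rose 1.42-fold.

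**Figure D3:**
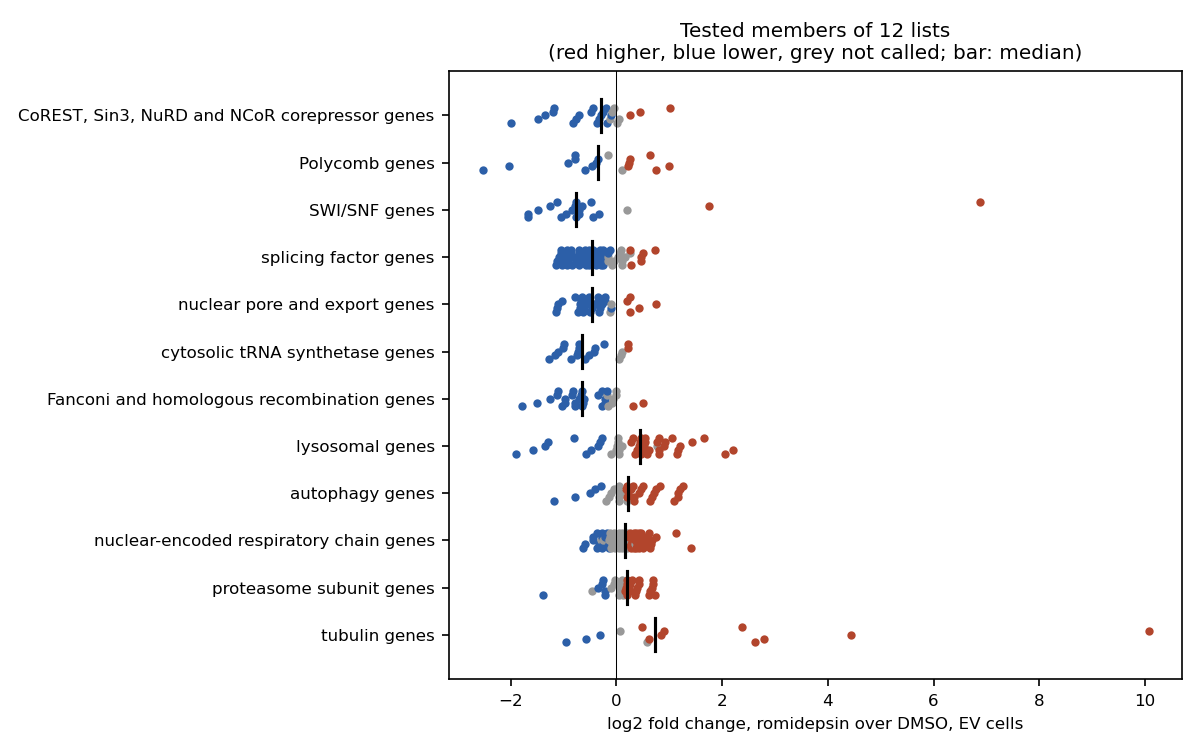
Log2 fold change with romidepsin in EV cells of each tested member of 12 gene lists, 1 point a gene, red for higher, blue for lower and grey for not called, with a bar at the median. Splicing, nuclear pore, tRNA synthetase, repair and SWI/SNF genes sit mostly below 0, and lysosomal, autophagy and tubulin genes mostly above.

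Of 14 tubulin genes, the building blocks of microtubules, 9 were higher and 3 lower, and of the 12 expressed 7 and 3. Tubb4a, a beta tubulin of brain, had no count in the 3 DMSO libraries and 6.73, 5.45 and 6.75 CPM with romidepsin, and was at least 129-fold higher than the floor of 3 counts over the group. It was the only gene with no count under DMSO and at least 100 counts in each romidepsin library. Tubb3, the neuronal beta tubulin, measured 24.5, 27.3 and 29.97 CPM with DMSO and 144, 140.4 and 141 CPM with romidepsin, a 5.18-fold rise. Tubb2a and Tubb2b, near-identical copies, rose 6.17-fold and 6.97-fold, against the fall of Tubb5, the main form of dividing cells (2439.6 ± 132 to 1262 ± 19.3 CPM).

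Kinesins, the motors of microtubules, were 15 higher and 17 lower of 36, and of the 31 expressed 11 were higher and 17 lower. Over all tested the balance turned to 16 higher and 14 lower under library-size scaling and to 18 and 17 without the filter. The 4 largest changes were rises: Kif5a and Kif21b, motors of axons and dendrites, rose 9.26-fold and 8.78-fold (Kif21b from 6.41 ± 1.12 to 56.1 ± 2.83 CPM), Kifc2 rose 12.5-fold and the cilium motor Kif9 rose from 0.105 ± 0.121 to 2.68 ± 0.619 CPM. Smooth muscle and contractile genes were 8 higher and 5 lower of 16, but of the 11 expressed 3 were higher and 5 lower. Beside Cnn1, the intermediate filament gene of muscle Des went from 0.167 ± 0.0866 to 2.08 ± 0.107 CPM and Synpo2, of stress fibres, from 0.362 ± 0.155 to 6.30 ± 0.374 CPM. The abundant actin crosslinker Actn1 rose 1.92-fold, and the tropomyosin Tpm1 fell 1.91-fold from 1753 ± 8.77 to 916 ± 20.6 CPM.

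Of 24 collagen genes, the fibres and sheets of the matrix, 16 were higher and 3 lower, and of the 11 expressed 5 and 3. The silent collagens were tested mainly because romidepsin libraries express them. Col5a3 had no count with DMSO and 2.70, 2.70 and 3.02 CPM with romidepsin (at least 57.6-fold higher than the floor), Col16a1 went from 0.117 ± 0.0844 to 3.57 ± 0.220 CPM, Col12a1 from 0.796 ± 0.177 to 5.39 ± 0.951 CPM and the fibroblast collagen Col1a1 from 0.511 ± 0.238 to 6.11 ± 0.844 CPM. Col4a1, of basement membranes and by far the most abundant of those named, fell 1.72-fold from 651 ± 19.9 to 377 ± 1.26 CPM. Laminins, the other scaffold of basement membranes, were higher in 7 and lower in 1 of 8, and in 5 and 1 of the 6 expressed. Lamb3, which belongs to the laminin of epithelial attachment, rose 3.94-fold, Lamc1 rose 1.77-fold, and Lamb1 fell 1.35-fold.

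Integrins, the receptors for these scaffolds, were higher in 5 and lower in 1 of 13 expressed. The laminin receptor Itga7 of muscle measured 3.31, 2.90 and 2.31 CPM with DMSO and 29.1, 27.2 and 29.97 CPM with romidepsin, a 10.3-fold rise. Itgb3 rose 2.61-fold, Itgb7 3.64-fold and Itga1 6.55-fold, and the collagen receptor Itga2 fell 1.70-fold. Proteases of the matrix and their inhibitors were 8 higher and 6 lower of 17 expressed. Plat, tissue plasminogen activator, measured 11.96, 8.23 and 9.84 CPM with DMSO and 224, 222 and 242 CPM with romidepsin, a 22.9-fold rise. Mmp17 and Mmp19 rose from below 1 CPM to 8.50, 8.07 and 9.96 CPM and 2.31, 2.57 and 2.74 CPM, and Adamts14 fell 4.24-fold.

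Tetraspanins, organisers of the cell surface, were higher in 9 and lower in 4 of 15, and in 7 and 4 of the 12 expressed, with Tspan13 going from 0.697 ± 0.303 to 22.1 ± 0.761 CPM, Tspan9 up 2.79-fold and Tspan8 down 2.60-fold. Annexin and S100 genes were 10 higher and 5 lower of 20, and 9 and 5 of the 19 expressed. Beside Anxa2, Anxa6 rose 3.06-fold, S100a13 2.95-fold and Anxa11 2.27-fold. Claudins and keratins were 8 higher and 4 lower of 14 expressed. The keratin of basal cells Krt14 went from 0.296 ± 0.0252 to 10.2 ± 0.419 CPM, Krt13 of stratified epithelia from 0.600 ± 0.138 to 3.72 ± 0.264 CPM, and the tight junction gene Cldn23 from near 0 to 4.62, 3.15 and 3.73 CPM. Cldn2, of leaky epithelia, fell from 2.60 ± 0.512 to 0.142 ± 0.0514 CPM.

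Protocadherins, adhesion molecules of the cadherin family, were mostly lower. Of 16 expressed, 1 was higher and 12 lower, and of all 29 tested 5 and 19. The clustered genes Pcdhb16, Pcdhb17 and Pcdhgb6, which lie in one array and give single neurons their identity, fell 3.64-fold, 3.50-fold and 3.06-fold, from levels of 2 to 4 CPM. Genes of the gamma cluster share exons, so their counts are not independent. Pcdh9, which lies elsewhere, rose 6.26-fold.

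Many channel genes are tested only because romidepsin libraries express them. Of 40 voltage-gated channel genes 21 were higher and 6 lower, but of the 18 expressed 6 and 6. The potassium channels Kcnh3, Kcna4, Kcnn1 and Kcnn3, all below 1 CPM with DMSO, reached 6.48, 7.17 and 8.35 CPM, 3.04, 3.11 and 2.17 CPM, 9.82, 8.97 and 9.77 CPM and 3.04, 3.02 and 3.73 CPM. Kcnf1, expressed before treatment, fell 3.08-fold from 28.4 ± 1.29 to 9.21 ± 0.323 CPM. Of 17 receptor genes for glutamate, GABA and acetylcholine 8 were higher and 3 lower, and of the 8 expressed 4 and 2, with the NMDA receptor subunit Grin1 going from 0.185 ± 0.117 to 2.02 ± 0.463 CPM and the muscarinic receptor Chrm4 from 1.03 ± 0.0402 to 3.53 ± 0.467 CPM, and the expressed Grik5 and Chrnb1 down 2.62-fold and 1.98-fold.

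Solute carriers, the largest family of transporters, were 88 higher and 60 lower of 184 expressed, with a median of 0.13 on the log2 scale, against 124 and 62 of all 233 tested. Slc30a3, the zinc loader of synaptic vesicles, and the glutamine transporter Slc38a3 had no count with DMSO and 2.95, 2.43 and 2.17 CPM and 2.55, 2.75 and 2.08 CPM with romidepsin. Against the floor of 3 counts over the group they were at least 51.5-fold higher and at least 50.5-fold higher. Slc2a4, the insulin-regulated glucose transporter GLUT4 of muscle and fat, measured 0, 0.0592 and 0.0386 CPM with DMSO and 8.74, 9.46 and 9.35 CPM with romidepsin, 2 counts in the 3 DMSO libraries against 586 in the romidepsin libraries, a ratio of 283 with a 95% counting interval of 77.96 to 2341. RAB genes, the switches of vesicle traffic, were higher in 31 and lower in 10 of 52, and in 26 and 10 of the 46 expressed. Rab3a, of synaptic vesicles, measured 3.36, 3.79 and 4.44 CPM with DMSO and 42.6, 39.3 and 41.3 CPM with romidepsin, a 10.5-fold rise. Rab3d, of secretory granules, rose 6.43-fold, Rab3c and Rab26 rose to 3.14, 2.52 and 1.89 CPM and 6.63, 7.66 and 7.08 CPM, and Rab34, of cilium formation, fell 2.65-fold from 118 ± 4.98 to 44.5 ± 1.03 CPM.

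Zinc finger genes, the largest family of transcription factors, were more often lower than higher. Of 343 with the Zfp symbol, many of them KRAB repressors of mobile elements, 191 were lower and 51 higher, and of the 322 expressed 188 and 42, with a median of -0.37 on the log2 scale. Zfp532 fell 13.8-fold, from 5.86 ± 0.675 to 0.423 ± 0.0399 CPM, and Zfp78 and Zfp14 rose 5.09-fold and 5.02-fold to about 2 CPM. Zfp729a measured 45.6, 39.3 and 39.9 CPM with DMSO and 303, 299.9 and 304 CPM with romidepsin, a 7.27-fold rise, in a family of close copies where assignment of reads is uncertain. Kruppel-like factors were 4 higher and 6 lower of 14: Klf4 and Klf2, factors of quiescent epithelium and endothelium, rose 3.97-fold and 2.92-fold, and Klf9 and Klf11 fell 1.62-fold and 1.71-fold.

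Nuclear receptors, the factors gated by hormones and lipids, were 9 higher and 15 lower of 29. Beside the fall of Hnf4a, the orphan Nr2f1 fell 3.44-fold. The mineralocorticoid receptor Nr3c2 measured 1.55, 1.60 and 1.77 CPM with DMSO and 11.9, 13.5 and 13.3 CPM with romidepsin, a 7.79-fold rise, and the vitamin D receptor Vdr went from 0.803 ± 0.134 to 10.3 ± 0.212 CPM. Clock genes split evenly, 8 higher and 8 lower of 16. The activator Arntl (BMAL1) measured 19.7, 17.6 and 21.1 CPM with DMSO and 67.3, 63.7 and 63.7 CPM with romidepsin, a 3.32-fold rise, and the repressor Nr1d2, which holds Arntl down in the clock's loop, measured 65.00, 63.8 and 58.8 CPM with DMSO and 22.4, 20.6 and 21.2 CPM with romidepsin, a 2.91-fold fall. Per1 rose 2.84-fold and the output factor Hlf rose from 0.0504 ± 0.0106 to 3.31 ± 0.565 CPM.

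**Figure D4:**
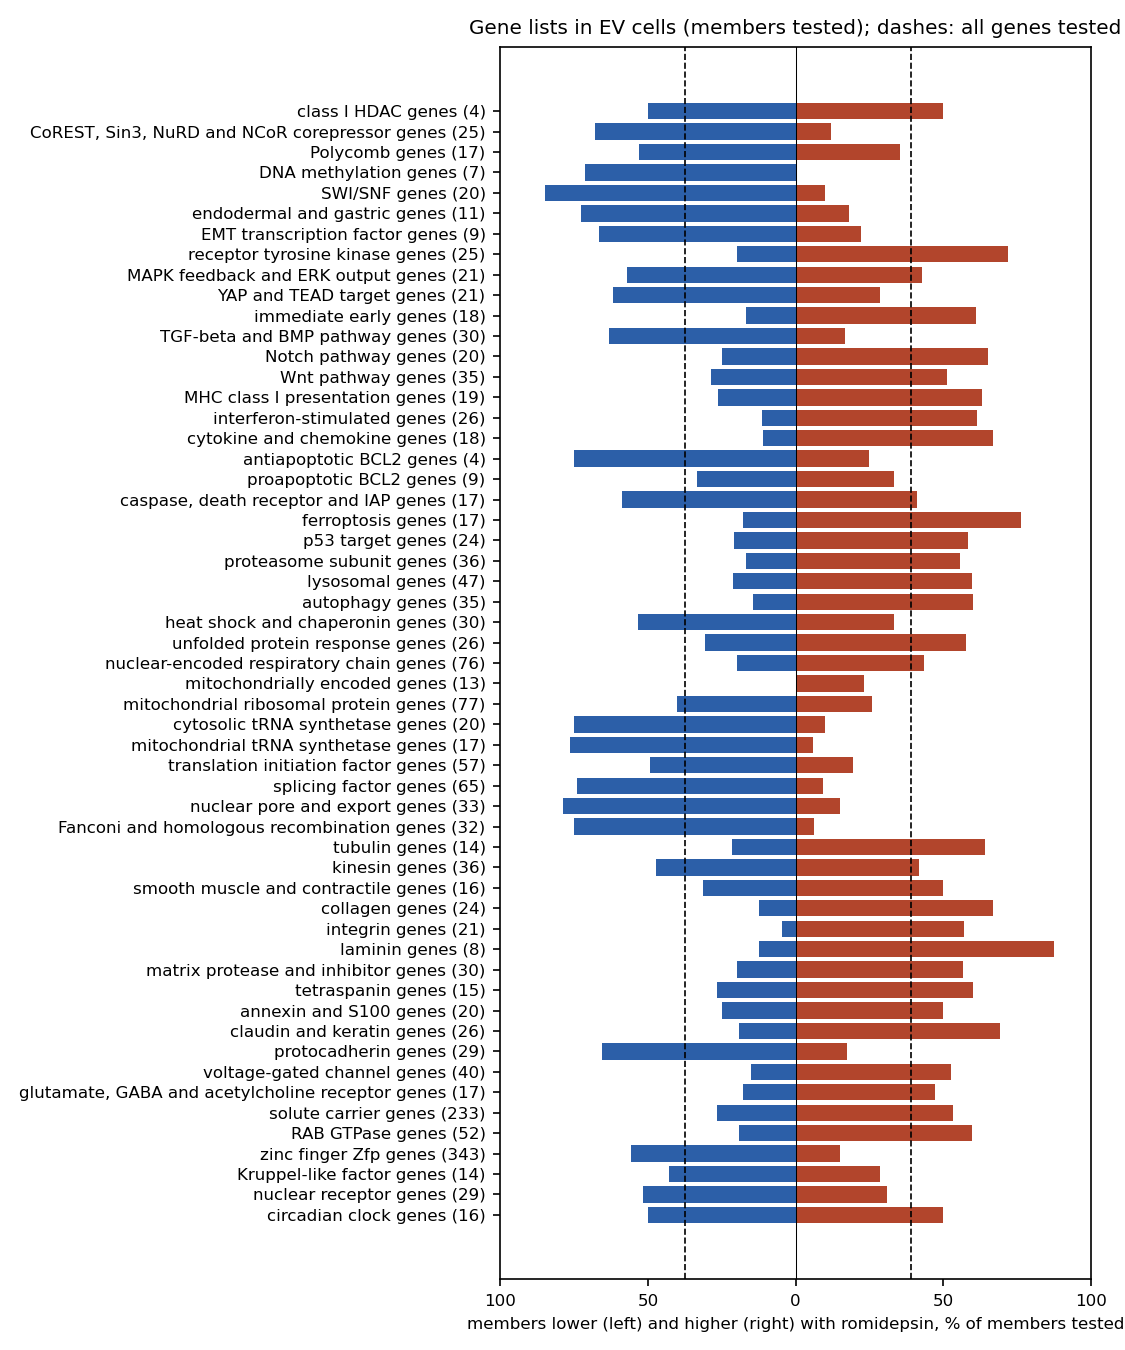
For each gene list, the share of tested members lower (blue, to the left) and higher (red, to the right) with romidepsin in EV cells, with the number tested in parentheses and dashed lines at the shares of all tested genes, 37.4% lower and 39.1% higher. Lists with many genes silent under DMSO lean to the right in part because the filter can keep such genes through the romidepsin libraries of either line.

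Cells overexpressing NRF2 served as a second line given the drug. It shares no library with the EV comparison, but the filter, the scaling and the estimate of the spread are common to both. Genes silent with DMSO in both lines are tested only if romidepsin libraries express them, which favours rises. Of the 2404 genes at least 2-fold higher in EV cells 2176 were so in NRF2 cells (90.5% of the EV genes and 83.7% of 2599 in NRF2 cells). Of 1191 at least 2-fold lower 1086 were (91.2%, and 63.8% of 1703). Over all 13502 tested genes, 2599 were at least 2-fold higher and 1703 at least 2-fold lower in NRF2 cells. Of all 5281 EV rises 40, and of all 5051 EV falls 24, were called in the opposite direction in NRF2 cells. Among those of at least 2-fold in EV cells, 3 rises and 1 fall were. The test of the difference between lines called 2127 genes (15.8%), with the signed log2 change higher in EV cells in 1380 (10.2%) and lower in 747 (5.53%). Without replicate 3 of NRF2 cells with DMSO 3048 genes were called, 2127 of them with the change higher in EV cells, and without replicate 2 of EV cells with romidepsin 1424 genes were called, 465 of them with the change lower. Nfe2l2, which encodes NRF2, itself did not pass the test in EV cells (102 ± 1.37 to 96.3 ± 2.90 CPM; edgeR adjusted p = 0.319).

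Among called genes averaging at least 5 CPM over the 12 libraries, the largest differences by which a rise was smaller in EV cells included a calcium channel, a lipid enzyme and a creatine kinase. Cacna1g, a T-type calcium channel, changed by 3.99 ± 0.12 (SE) in EV cells and 6.97 ± 0.17 in NRF2 cells on the log2 scale. The difference was -2.98 ± 0.30 (edgeR adjusted p = 5.6e-06). The SE here and below were derived from the test statistic and can be too small for large changes from few counts. Enpp2, the enzyme autotaxin that makes lysophosphatidic acid, changed by 2.37 ± 0.11 and 4.65 ± 0.15 (edgeR adjusted p of the difference = 1.7e-06). For Vdr the changes were 3.65 ± 0.16 and 5.47 ± 0.18 and for the brain creatine kinase Ckb 4.41 ± 0.10 and 6.20 ± 0.11. In EV cells themselves Ckb measured 6.25, 7.58 and 5.82 CPM with DMSO and 133, 131 and 151 CPM with romidepsin and Cacna1g 1.28, 2.01 and 1.39 CPM with DMSO and 23.6, 24.1 and 25.8 CPM with romidepsin.

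In the other direction, Gsta4, a glutathione transferase that clears lipid aldehydes, rose by 4.47 ± 0.10 in EV cells and 2.07 ± 0.07 in NRF2 cells, a difference of 2.41 ± 0.12 (edgeR adjusted p = 2.3e-09). In EV cells it measured 4.49, 2.90 and 4.36 CPM with DMSO and 89.6, 85.9 and 90.2 CPM with romidepsin. Tns1, a focal adhesion protein, changed by 4.44 ± 0.31 and 2.41 ± 0.14. The placental hormone genes Prl2c2 and Prl2c3 fell less in EV cells, with log2 changes of -2.17 ± 0.41 against -5.34 ± 0.23 and of -1.28 ± 0.15 against -4.10 ± 0.10, but they are near-identical copies. Gsta1 was below 1 CPM in EV cells, where its log2 change of 1.95 ± 0.83 was at the threshold (edgeR adjusted p = 0.0499), and not past it (0.128) without replicate 1 of EV cells with DMSO, among others. With the replicate number as a block its adjusted p was 0.0625.

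**Figure D5:**
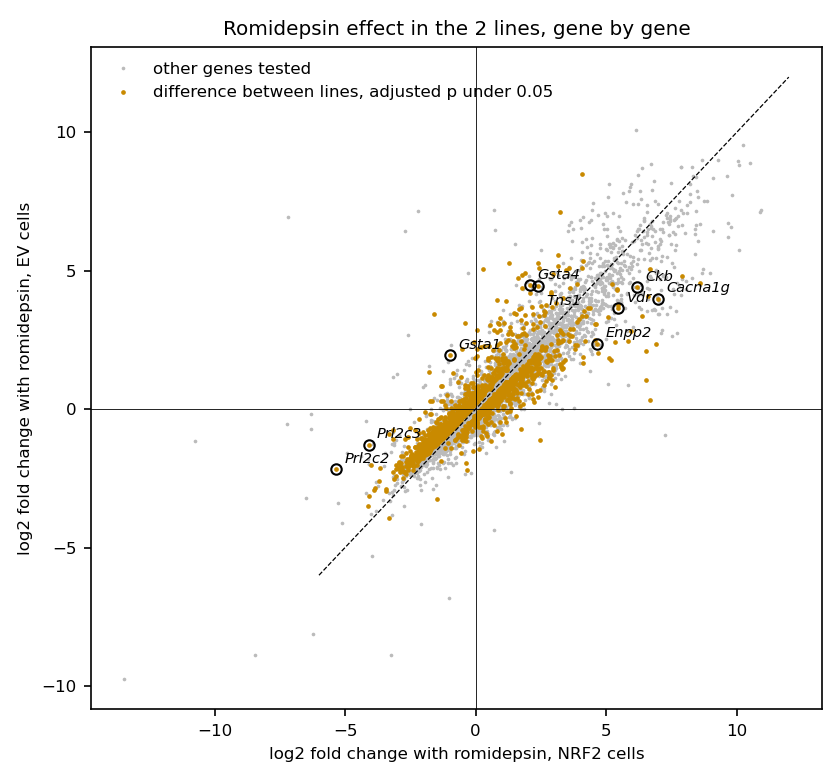
Log2 fold change with romidepsin of each tested gene in EV cells (vertical) against NRF2 cells (horizontal), with genes whose difference between lines had an adjusted p under 0.05 in orange and a dashed line where both are equal. Points lie along the line, and the ringed genes are the genes that the text names for their difference.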

How the data were processed

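Poly-A RNA was extracted with Trizol and made into libraries with a TruSeq kit, per the labels' protocols. The submitters' processing notes name bcl2fastq 2.19, kallisto 0.44.0, DESeq2 and GRCm38. The authors deposited kallisto estimated counts per gene symbol, whole numbers in 100% of values, and a signal made by dividing these counts by a factor per library, which was not used here. How kallisto divides reads among near-identical genes affects their counts.

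The deposited estimated counts of all 12 libraries went into a single edgeR 4.0.16 quasi-likelihood fit (robust, two-sided, TMM factors, default filter on 4 groups), which leaves 8 residual degrees of freedom. P-values were adjusted over all 13502 genes by Benjamini-Hochberg and called under 0.05. A prior count of 0.125 entered the log2 fold changes. Their standard error (SE) was derived from the F statistic, as the log2 fold change over the root of F. For large changes from few counts it can be smaller than counting error alone. Where a group had no count, a floor of 3 counts over the group was used, and where it had 1 to 3 a ratio of counts with a 95% interval. Library totals, 17486205 to 27085081 in EV cells, set this precision. The fit was tested on simulated data in which few genes changed, and by small folds. That setting is unlike the broad changes found here, so it does not test the scaling for them. Gene positions and types came from GENCODE M21 by symbol (34177 matched once), promoters from RefSeq on GRCm38.p6.

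The comparison and the 64 lists were chosen with earlier results of these data known. Genes were named by rule: the 12 largest rises and falls among non-overlapping genes that average 5 CPM or more, the 6 largest gains and losses in share of counts, up to 4 called members of at least 1 CPM from each list described and the largest against its majority, the class I HDACs, Nfe2l2, markers, and the 5 largest differences between lines each way. Predicted genes and pseudogenes were left out, and some genes that the rule names are not reported here. Of the lists, 55 are shown. Those of Hox, germline and vomeronasal genes, of airway epithelium and of other cell types were low or are covered by the markers. The olfactory receptor list is also not shown but was not low. It summed to 473 to 552 CPM with DMSO and 1088 to 1114 CPM with romidepsin. Of its 1117 genes 88 were tested, with 3 higher and 10 lower, against 39.1% and 37.4% of all tested genes. Lists share some members and were given no set test. Alternatives were other scalings (RLE, upper quartile, library size), other filters, DESeq2 1.42.0, limma-voom (limma 3.58.1), EV libraries alone, the replicate number as a block, an adjusted p under 0.01, 10 levels in place of 5, and leaving out each library.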

Additional observations from a re-analysis of the deposited data

Results flagged for a closer look

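Of the 290 tested genes named above, 88 differed between EV and NRF2 cells in their response to romidepsin by the edgeR interaction test at an adjusted p under 0.05, the largest adjusted p being 0.047. The background is 15.8% of all tested genes, but some of the named genes were chosen for this difference. Each value is the log2 fold change in EV cells minus that in NRF2 cells.

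The rise was smaller in EV cells by a difference of -3.15 for Hey2, -3.09 for Cxcl10, -2.98 for Cacna1g, -2.29 for Enpp2, -1.82 for Vdr, -1.79 for Ckb and -1.67 for Anxa6. Smaller rises in EV cells also gave -1.61 for Tspan13, -1.51 for Notch1, -1.22 for Bmp4, -1.11 for Tap2, -0.80 for Fos, -0.74 for Kifc2 and -0.73 for Itga7. To these belonged -0.69 for Plat, -0.59 for Fth1, -0.47 for Atg101, -0.46 for Tubb2b, -0.44 for Sat1, -0.44 for Map1lc3a and -0.38 for Zfp729a. Last came -0.30 for Arntl and -0.28 for Map1lc3b.

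The fall was larger in EV cells with a difference of -1.77 for Slc7a11, -0.63 for Dkk2, -0.62 for Atoh8 and -0.32 for Erbb2.

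A larger rise in EV cells gave a difference of 0.25 for Anxa2, 0.28 for Calr, 0.32 for Dusp5, 0.40 for Tspan9, 0.42 for Ccn2 and 0.47 for Krt19. The same direction held with 0.60 for Nr3c2, 0.66 for Kif21b, 0.72 for Cx3cl1, 0.76 for Cdkn1a, 0.88 for Il33, 0.89 for F3 and 0.93 for Klf4. Larger rises also came with 0.98 for Pcdh9, 1.05 for Erbb3, 1.27 for Chrm4, 1.37 for Itgb7, 1.48 for Itga1, 1.5 for Krt14 and 1.76 for Oasl1. Last in this set were 2.03 for Tns1, 2.41 for Gsta4, 2.94 for Gsta1 and 3.12 for Slc40a1.

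The fall was smaller in EV cells by a difference of 0.21 for Eif4g2, 0.24 for Hsp90ab1, 0.24 for Hmga1, 0.25 for Myof, 0.25 for Chd3, 0.26 for Tars and 0.29 for Dnmt1. Smaller falls in EV cells also gave 0.29 for Tpm1, 0.31 for Lif, 0.33 for Sox2, 0.36 for Cdh1, 0.38 for Herpud1, 0.39 for Npm1 and 0.40 for Tspan8. Next were differences of 0.43 for Arid1a, 0.43 for Itga2, 0.44 for Uhrf1, 0.45 for Hnrnpu, 0.45 for Tubb5, 0.48 for Masp1 and 0.49 for Ckap2. Others were 0.50 for Fancd2, 0.50 for Srsf7, 0.52 for Foxa1, 0.54 for Hnrnpab, 0.54 for Nr1d2, 0.56 for Cflar and 0.57 for Lgals3bp. Further values were 0.62 for Rcbtb2, 0.75 for Adamts14, 0.75 for Hmga2, 0.75 for Bard1, 0.95 for Clcf1, 0.98 for Trim65 and 1.15 for Samd9l. The set closed with 2.82 for Prl2c3 and 3.17 for Prl2c2.

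Slc7a11, the cystine importer, thus fell by 3.23 on the log2 scale in EV cells and by 1.47 in NRF2 cells, and the annexin Anxa6 rose by 1.61 and 3.28. Cdkn1a rose by 3.40 in EV cells and 2.64 in NRF2 cells, and Hmga2 fell by 1.90 and 2.65. Prl2c2 and Prl2c3 are near-identical copies, and Slc40a1, Hey2 and Cxcl10 rest on levels near 0 with DMSO. Replicate 3 of NRF2 cells with DMSO, which stood apart from its replicates, enters every one of these differences, and its part in them was not tested gene by gene.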

How the results depend on the processing

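The counts of genes called kept within 1.5 times of those reported under all 22 settings for rises and falls. With upper-quartile or library-size scaling the median log2 fold change of all genes moved from 0.01 to 0.12 and 0.13, and calls to 5990 higher and 4392 lower and to 6051 higher and 4332 lower, against 5281 and 5051, so the near-even split depends on the scaling and is a relative one. Leaving out each library gave 5058 to 5608 higher, 4874 to 5312 lower, 2407 to 2508 higher and 1175 to 1242 lower at least 2-fold, and 1424 to 3048 differences between lines. At an adjusted p under 0.01 the latter were 1050. DESeq2 called 5340 higher and 4794 lower, limma-voom 5293 and 5079. In 10 levels in place of 5 the share of higher genes ran from 75.8% in the lowest to 21% in the highest.

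In the 290 described genes no log2 fold change changed sign where the gene was called in the main fit or under the setting. Sign changes of genes called in neither were not counted. Of 6376 recomputed values 60 lost the call, in 8 genes: Bcl2, Gsta1, Hdac2, Hdac3, Hdac8, Lars2, Ptprc and mt-Nd1. The cause was not tested. Of 2420 counts of list members 51 moved by over 1.5 times. Under both scalings named above, the respiratory chain had 8 and 6 lower members in place of 15, contractile genes 3 in place of 5, and under library size alone RAB genes 6 in place of 10. Without replicate 3 of NRF2 cells with DMSO 2 integrins were lower in place of 1.

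The replicate numbers were checked for pairing. Deviations of same-numbered EV libraries correlated at -0.002, -0.041 and 0.020, and those of differently numbered EV libraries at -0.070 to 0.070. The check gave no sign of pairing, but with 3 libraries a group it cannot exclude it. With the replicate block 5216 genes were higher and 5019 lower, 2394 and 1188 at least 2-fold, and 1858 differed between lines. Among the described genes the block ended the calls of Hdac3 (edgeR adjusted p = 0.0563) and Gsta1 (0.0625) and changed no other. Single genes near 0 with DMSO have folds that depth limits, since a floor of 3 counts stands for the whole group.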

Other observations

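Calls were spread over the genome. By chromosome the share of tested genes higher with romidepsin in EV cells ran from 31.8% on chromosome 16 to 45.9% on chromosome 19, and the share lower from 34% on chromosome 10 to 43.2% on chromosome 18. On the X chromosome 33.7% of 413 genes were higher and 41.4% lower. Of 321 processed pseudogenes, intronless copies made from messenger RNA, 9.03% were higher and 18.7% lower, against 40.1 and 38.3% of 12755 protein-coding genes. Reads of such copies can come from their parent genes, and their part in these shares was not tested. Genes were also put in 5 equal tiers by their longest annotated transcript. In the shortest tier, up to 1916 bases, 40% were higher and 28.7% lower, and in the longest tier, from 5253 bases, 34.4% were higher and 45.2% lower. Expression level differs between such classes and was not held fixed here.

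Germline genes, normally silent outside testis and ovary, included 2 that the naming rule picks. Tex15, of meiotic recombination, went from 0.0959 ± 0.0368 to 2.15 ± 0.573 CPM and Brdt, the testis bromodomain protein, from 0.315 ± 0.0429 to 3.12 ± 0.399 CPM. Both were near 0 with DMSO, so that the filter fixes part of the rise.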
